A study of Homo sapiens with 16 samples.

Results

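Antiviral restriction factors are proteins that block a virus inside the cell, and many of them are encoded by interferon-stimulated genes. The 10 genes described here are MX1, MX2, RSAD2, BST2, SAMHD1, IFITM1, IFITM2, IFITM3, TRIM5 and TRIM22. They were chosen by name, with earlier results of these data known. Every probe on the array that carried one of these names was used. This gave 15 probes for 10 of the 34423 names on the array. Their RNA was measured in RPMI-8226 and MM.1S, which are established human multiple myeloma cell lines, the malignant counterpart of plasma cells. Each line was given DMSO, the solvent control, GSK126 at 1 µM, UNC0638 at 1 µM, or GSK126+UNC0638 at 1 µM each, in every case for 6 days. GSK126 inhibits EZH2, the methyltransferase that methylates histone H3 at lysine 27, and UNC0638 inhibits G9a, the H3K9 methyltransferase encoded by EHMT2, and both marks are associated with silent genes. There were 2 arrays per group, 8 groups and 16 arrays in all, and the study calls the 2 samples of a group biological replicates. Whether they came from separate cultures is not given in the sources used here, so the p-values measure the spread between these samples. Each result comes from 2 cell lines, which stand for no other myeloma.

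Interferons bind receptors that activate the Janus kinases, which phosphorylate transcription factors such as STAT2. With IRF9 these form a complex, ISGF3, that binds the interferon-stimulated response element (ISRE) in the promoters of its targets. The members act at different steps of infection. MX1 and MX2 are dynamin-like GTPases that trap viral nucleoproteins or capsids. RSAD2 (viperin) makes a nucleotide that terminates viral RNA chains, and SAMHD1 removes the nucleotides that reverse transcription needs. BST2 (tetherin) holds budding virions at the cell surface. IFITM1, IFITM2 and IFITM3 sit in membranes and hinder fusion. TRIM5 binds incoming retroviral capsids, and TRIM22 is a related tripartite motif protein that lies beside it on chromosome 11.

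The promoters are shown because most members share a sequence. The genes were chosen by name, but many restriction factors are interferon-stimulated genes, so this sequence is not independent of the choice. RefSeq windows from 250 bases before to 50 bases after a transcription start (GRCh38.p14) were held for 7 of the 10 members, and MX2, IFITM2 and TRIM22 were not matched. The ISRE core, spelled GAAANNGAAA, was searched on both strands. It was present in at least 1 window of 6 of these 7 genes, MX1, RSAD2, BST2, IFITM1, IFITM3 and TRIM5, and in 4.38% of all 27305 genes with a window. The SAMHD1 window held none. The gamma-activated site, spelled TTCNNNGAA, was present in 3 of the 7 genes (MX1, BST2 and IFITM1) and in 9.38% of all genes, and in each of the 3 at least 1 match overlapped an ISRE match. A match describes the letters and does not show that a factor binds. In the stretches below, read along the strand of the gene, capitals mark 1 ISRE match, which in MX1, RSAD2 and TRIM5 lies on the opposite strand and appears as its reverse complement.
MX1, chr21:41431829-41431888, plus strand: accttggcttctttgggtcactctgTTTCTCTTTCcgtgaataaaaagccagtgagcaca
RSAD2, chr2:6877607-6877666, plus strand: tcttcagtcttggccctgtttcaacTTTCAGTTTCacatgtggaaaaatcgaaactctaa
BST2, chr19:17405726-17405785, minus strand: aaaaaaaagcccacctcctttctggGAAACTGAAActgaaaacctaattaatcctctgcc
IFITM1, chr11:313975-314034, plus strand: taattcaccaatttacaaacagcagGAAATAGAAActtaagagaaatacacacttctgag
IFITM3, chr11:320861-320920, minus strand: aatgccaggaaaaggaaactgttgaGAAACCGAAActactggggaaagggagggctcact
TRIM5, chr11:5685075-5685126, minus strand: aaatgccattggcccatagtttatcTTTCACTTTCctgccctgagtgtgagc

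A level below is the log2 of a spot's brightness relative to the 75th percentile on the same array, so that 0 is the brightness of the probe at that percentile. Levels of different genes come from different probes and are not set against each other. A gene is represented by the brightest of its probes, judged by the mean of all 16 arrays, and differences were tested with limma over all probes kept in a line, 23199 in RPMI-8226 and 25102 in MM.1S, with a Benjamini-Hochberg adjusted p under 0.05 as the threshold for a call. All 10 members passed the filter on dim probes in MM.1S cells and 7 passed it in RPMI-8226 cells, where RSAD2, TRIM5 and TRIM22 did not. In whole cultures, a change in the RNA per cell and a change in the number of cells that make it cannot be told apart. The arrays had a 75th percentile of 256 to 349 intensity units in the RPMI-8226 line and 431 to 477 in the MM.1S line, and each line was on its own slide, so slide and line cannot be told apart. All 10 plasma cell markers were well above background on all 16 arrays. Among markers of other cell types, 3 of 5 T or NK cell, 2 of 4 monocyte or macrophage, 2 of 4 epithelial and 0 of 4 fibroblast or endothelial genes were above background on all arrays.

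The probe positions, as the files give them on GRCh37, were chr21:42831014-42831073 for MX1, chr21:42780501-42780560 for MX2, chr2:7037200-7037259 for RSAD2, chr20:35520759-35520818 for SAMHD1 and chr19:17513748-17513807 for BST2. On chromosome 11 they were chr11:315209-315268 for IFITM1, chr11:309109-309168 for IFITM2, chr11:319855-319914 for IFITM3, chr11:5687231-5687290 for TRIM5 and chr11:5731591-5731650 for TRIM22. Which exon each lies in was not analysed here. IFITM2 and IFITM3 are near copies, and their probes share a run of 17 bases, shown in capitals. Over the 40 bases in which the probes align, 34 were the same (85.0%), so RNA of one may add to the signal of the other.
IFITM2 probe: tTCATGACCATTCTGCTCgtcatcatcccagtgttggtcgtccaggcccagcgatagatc
IFITM3 probe: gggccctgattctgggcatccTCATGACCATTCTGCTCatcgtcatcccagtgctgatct

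**Figure D1:**
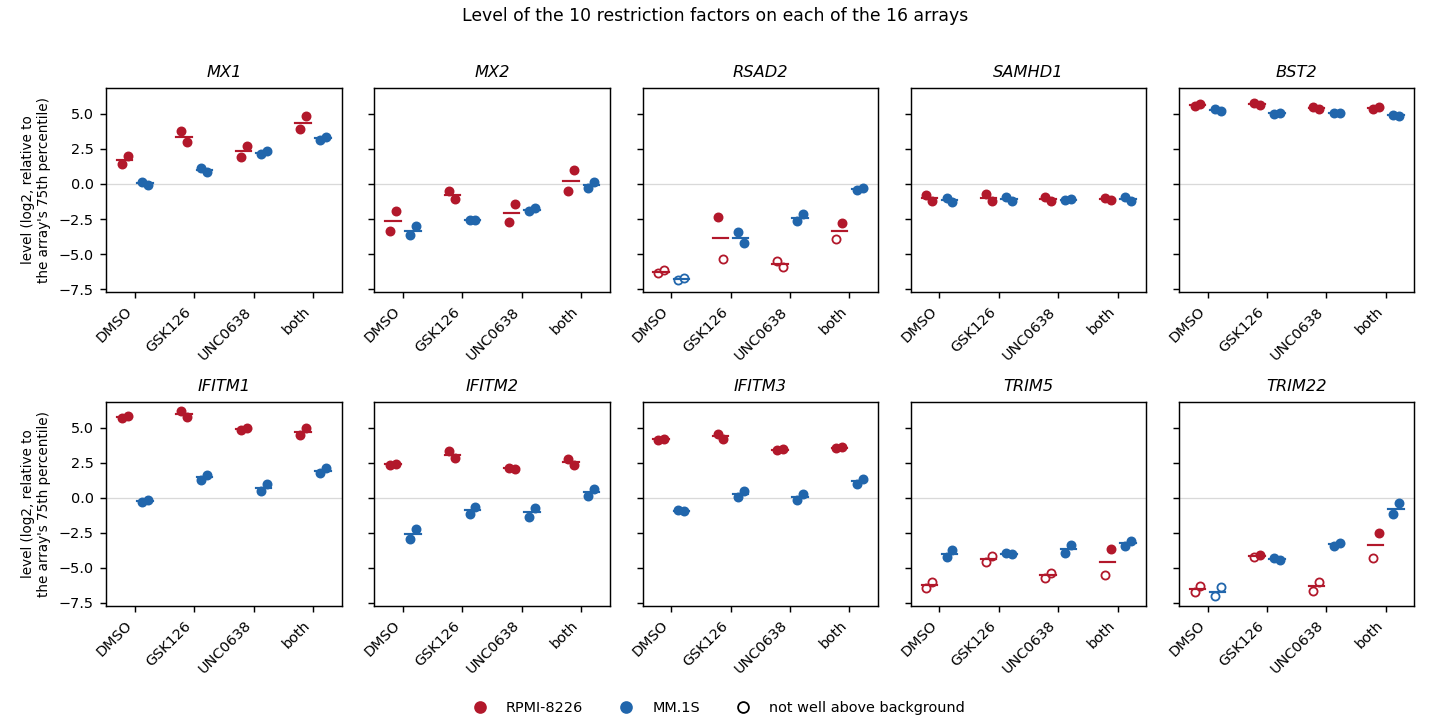
Level of each restriction factor on each array, as log2 intensity relative to the 75th percentile of the array (y axis), for the 4 treatments (x axis; both is GSK126+UNC0638) in RPMI-8226 (red) and MM.1S (blue) cells. Points are arrays, bars are means of 2 arrays and open points were not well above background. IFITM1, IFITM2 and IFITM3 stayed higher in RPMI-8226 cells under every treatment, and RSAD2 and TRIM22 rose from background in MM.1S cells.

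Untreated, the lines differed most in the 3 IFITM genes. With DMSO, IFITM1 had levels of 5.67 and 5.81 on the RPMI-8226 arrays and -0.27 and -0.12 on the MM.1S arrays. IFITM1 was thus 61.3-fold higher in RPMI-8226 cells (log2 difference 5.94 ± 0.24, SE; limma adjusted p = 9.9e-09). IFITM2 was 31.1-fold higher (4.96 ± 0.31; adjusted p = 3.15e-07) and IFITM3 33.9-fold higher (5.08 ± 0.20; adjusted p = 9.03e-09). MX1 was 3.18-fold higher in RPMI-8226 cells (1.67 ± 0.37; adjusted p = 0.00291), and its DMSO levels of 1.40 and 2.03 did not overlap with 0.14 and -0.04 in MM.1S cells. BST2 was 1.27-fold higher (0.34 ± 0.11; adjusted p = 0.0202), a call that was lost with quantile normalization (0.16) and without DMSO replicate 2 of either line (adjusted p up to 0.133). In all, 5 of 10 members were higher and 1 was lower in RPMI-8226 cells, where 28.4% and 29.3% of all probes were.

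The lower one was TRIM5. It was not well above background on either RPMI-8226 DMSO array and had levels of -4.25 and -3.73 in MM.1S cells, which made it at least 1.32-fold lower in RPMI-8226 cells (adjusted p = 0.0025). That adjusted p tests the fitted difference and not the bound, and TRIM5 was kept through MM.1S cells alone. With normexp background correction the TRIM5 difference was -0.086 and was not called. MX2 differed by 0.70 ± 0.59 (adjusted p = 0.338) and its groups overlapped. SAMHD1 differed by 0.15 ± 0.20 (adjusted p = 0.551) on its brighter probe, while its other probe was lower in RPMI-8226 cells by -1.05 ± 0.19 (adjusted p = 0.000887), so the probes of SAMHD1 disagreed between the lines. RSAD2 and TRIM22 were not well above background on any DMSO array of either line.

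The GTPases MX1 and MX2 rose with GSK126+UNC0638 in both lines. In MM.1S cells MX1 went from 0.14 and -0.04 with DMSO to 1.15 and 0.86 with GSK126, 2.15 and 2.33 with UNC0638, and 3.15 and 3.35 with both. No 2 of these MM.1S groups overlapped. The differences from DMSO were 1.94-fold (0.95 ± 0.14; adjusted p = 0.0204), 4.56-fold (2.19 ± 0.14; adjusted p = 0.000828) and 9.20-fold (3.20 ± 0.14; adjusted p = 0.000103). MX2 in MM.1S cells went from -3.64 and -3.03 to -2.56 and -2.58, -1.96 and -1.71, and -0.28 and 0.17 in the same order. It rose 2.83-fold with UNC0638 (1.5 ± 0.24; adjusted p = 0.00844) and 9.73-fold with both inhibitors (3.28 ± 0.24; adjusted p = 0.000308), and with GSK126 alone it differed by 0.76 ± 0.24 (adjusted p = 0.107).

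In RPMI-8226 cells MX1 had levels of 1.40 and 2.03 with DMSO, 3.77 and 2.99 with GSK126, 1.93 and 2.74 with UNC0638, and 3.93 and 4.84 with both. Both arrays of the GSK126+UNC0638 group lay above all other RPMI-8226 arrays. MX1 was 6.35-fold higher with both inhibitors than with DMSO (2.67 ± 0.45; adjusted p = 0.015), and this call was lost without DMSO replicate 1 (2.35; adjusted p = 0.0732) or GSK126+UNC0638 replicate 2 (2.21; adjusted p = 0.061), with adjusted p between 0.000615 and 0.0732 over its 19 alternatives. MX2 had levels of -3.34 and -1.93 with DMSO, -0.47 and -1.09 with GSK126, -2.70 and -1.44 with UNC0638, and -0.52 and 0.99 with both. The arrays of MX2 spread more than those of MX1, and DMSO overlapped with UNC0638 and GSK126 with the pair. MX2 was 7.34-fold higher with both inhibitors (2.88 ± 0.70; adjusted p = 0.0444), a call that was lost without any 1 of the 8 RPMI-8226 arrays (adjusted p between 0.0537 and 0.154). With GSK126 alone the differences were 1.66 ± 0.45 for MX1 (adjusted p = 0.247) and 1.86 ± 0.70 for MX2 (adjusted p = 0.413).

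A second MX2 probe, at chr21:42735919-42735978 and tied by the files to another transcript, did not follow. It differed from DMSO by 0.20 ± 0.17 in RPMI-8226 cells (adjusted p = 0.46), and its MM.1S difference was -0.06 ± 0.35 (adjusted p = 0.9) with both inhibitors. The MX2 values above therefore hold for the brighter probe alone, and with the mean over both probes the MM.1S difference with UNC0638 was 0.60 and was not called (adjusted p = 0.0523).

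RSAD2 and TRIM22 rose from background in MM.1S cells, so that the size of each rise has only a lower bound. RSAD2 was at -6.82 and -6.75 with DMSO, not well above background, and at -3.43 and -4.22 with GSK126, -2.64 and -2.15 with UNC0638, and -0.40 and -0.25 with both. The RSAD2 groups did not overlap. RSAD2 was at least 1.95-fold higher with GSK126 (adjusted p = 0.0063), at least 5.23-fold higher with UNC0638 (adjusted p = 0.000774) and at least 22.0-fold higher with both (adjusted p = 9.92e-05). For each bound, the treated mean was divided by the dimmest signal that still counted as well above background on the DMSO arrays, or by the probe's own signal where that was higher. An adjusted p beside a bound tests the fitted difference, which uses DMSO signals at background, and not the bound. RSAD2 and TRIM22 were kept in MM.1S cells through treated groups alone, so only a rise from DMSO could be seen. TRIM22 was at -7.04 and -6.37 with DMSO, -4.28 and -4.44 with GSK126, -3.44 and -3.19 with UNC0638, and -1.19 and -0.40 with both. Again no groups overlapped, and TRIM22 was at least 1.34-fold (adjusted p = 0.0154), 2.77-fold (adjusted p = 0.00216) and 15.9-fold (adjusted p = 0.000148) higher in that order. The TRIM22 call with GSK126 was lost with normexp background correction (fitted difference 0.28, from 2.35; adjusted p = 0.289), without the filter on dim probes, and without DMSO replicate 1 or either GSK126 array (adjusted p up to 0.0951). Normexp also lowered the fitted RSAD2 difference with GSK126 from 2.96 to 0.52 (adjusted p = 0.0291), and the RSAD2 call was lost with 1 fit over all 16 arrays (adjusted p = 0.0602).

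In RPMI-8226 cells RSAD2 was well above background on only 2 of 8 arrays, GSK126 replicate 1 (-2.38) and GSK126+UNC0638 replicate 2 (-2.81), and their partner arrays were at -5.36 and -3.91. TRIM22 was above background on GSK126 replicate 2 (-4.07) and GSK126+UNC0638 replicate 2 (-2.49), with partners at -4.22 and -4.32. TRIM5 was above background on GSK126+UNC0638 replicate 2 alone (-3.65, against -5.51 on its partner). GSK126+UNC0638 replicate 2 was thus the RPMI-8226 array on which all 3 were detected, and no test was made of them in this line. A second RSAD2 probe was above background on none of the 16 arrays.

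The 3 IFITM genes rose in MM.1S cells from their low start. IFITM1 went from -0.27 and -0.12 with DMSO to 1.28 and 1.64 with GSK126, 0.51 and 0.95 with UNC0638, and 1.74 and 2.10 with both. IFITM2 went from -2.92 and -2.20 to -1.17 and -0.63, -1.34 and -0.73, and 0.14 and 0.64, and IFITM3 from -0.85 and -0.97 to 0.07 and 0.50, -0.17 and 0.24, and 0.99 and 1.38. Every treated array lay above both DMSO arrays for all 3 genes. With both inhibitors IFITM1 rose 4.34-fold (2.12 ± 0.21; adjusted p = 0.000639), IFITM2 7.72-fold (2.95 ± 0.35; adjusted p = 0.0011) and IFITM3 4.28-fold (2.10 ± 0.22; adjusted p = 0.00074). With GSK126 the rises were 3.16-fold, 3.17-fold and 2.30-fold (adjusted p = 0.0129, 0.0455 and 0.0323), and with UNC0638 they were 1.90-fold, 2.87-fold and 1.93-fold (adjusted p = 0.0224, 0.0238 and 0.0237). The second IFITM1 probe moved the same way, by 1.39, 0.76 and 1.97 in the order GSK126, UNC0638 and both, and was not called with UNC0638 (adjusted p = 0.0589).

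In RPMI-8226 cells, where they started high, the IFITM genes did not rise past the threshold with any treatment. IFITM1 was at 5.67 and 5.81 with DMSO, 6.21 and 5.74 with GSK126, 4.85 and 4.97 with UNC0638, and 4.46 and 4.99 with both. The last 2 groups lay below DMSO, and IFITM1 fell 2.03-fold with both inhibitors (-1.02 ± 0.24; adjusted p = 0.0389). This call was lost without either DMSO array, either UNC0638 array or GSK126+UNC0638 replicate 1 (adjusted p between 0.0403 and 0.182 over the 8 arrays left out). It was also lost with quantile normalization, the percentile over probes detected on all arrays, no filter on dim probes and a fit of the compared groups alone, and its adjusted p ran from 0.00972 to 0.182 over its 19 alternatives. Its second probe fell by 1.13 (SE 0.22; adjusted p = 0.0238). IFITM3 differed by -0.59 ± 0.17 with both inhibitors (adjusted p = 0.0637) and by -0.73 ± 0.17 with UNC0638 (adjusted p = 0.162). IFITM2 differed by 0.17 ± 0.22 with both (adjusted p = 0.639).

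BST2 and SAMHD1 did not rise past the threshold with any treatment in either line. BST2 was at 5.37 and 5.23 with DMSO in MM.1S cells and at 4.95 and 4.88 with both inhibitors. The groups did not overlap, and BST2 was 1.30-fold lower (-0.38 ± 0.09; adjusted p = 0.0123), but the direction turned with quantile normalization (0.091), and the call was lost without DMSO replicate 1 (adjusted p = 0.066) or GSK126+UNC0638 replicate 2 (adjusted p = 0.0556). In RPMI-8226 cells BST2 differed by -0.23 ± 0.14 (adjusted p = 0.308). SAMHD1 stayed between -1.27 and -0.74 on all 16 arrays, and its largest difference from DMSO on the brighter probe was -0.07 ± 0.22. On its other probe the largest was 0.31 ± 0.14, with UNC0638 in MM.1S cells (adjusted p = 0.145). TRIM5 in MM.1S cells went from -4.25 and -3.73 with DMSO to -3.41 and -3.05 with both inhibitors, a difference of 0.76 ± 0.26 (adjusted p = 0.0522).

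**Figure D2:**
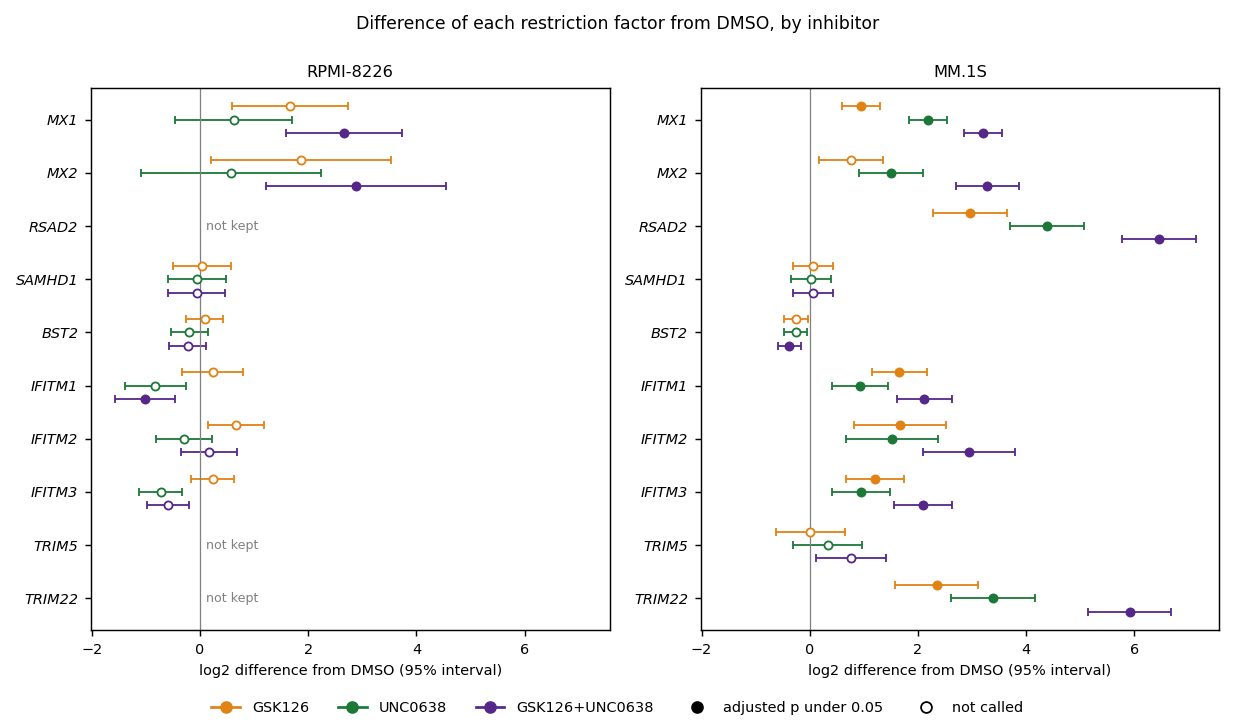
Log2 difference from DMSO (x axis) with its 95% interval for each restriction factor (y axis) and treatment, in RPMI-8226 (left) and MM.1S (right) cells; filled points passed an adjusted p of 0.05. In MM.1S cells 7 members rose with GSK126+UNC0638, while in RPMI-8226 cells MX1 and MX2 rose and IFITM1 fell. The RPMI-8226 calls were lost in 2 of 19 alternatives for MX1, 10 of 19 for MX2 and 9 of 19 for IFITM1. The fitted values of RSAD2 and TRIM22 rest on DMSO arrays at background, so that they are no measure of size, and the fall of BST2 in MM.1S cells turned to 0.091 with quantile normalization.

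Counted over the members, GSK126 raised 6 of 10 in MM.1S cells and lowered none, where 5.19% of all probes were higher and 2.39% lower. UNC0638 raised 7 and lowered none, with 12.8% and 16.5% of all probes, and both inhibitors raised 7 and lowered 1, with 22.2% and 31.7%. The members were chosen with earlier results of these data known, so the counts and shares are a description and no test of the group. RSAD2 and TRIM22 are in each of these counts of raised members. They passed the filter through treated groups alone, so only a rise from DMSO could be seen for them. IFITM2 with GSK126 was not called without any 1 of the 8 arrays. The count for GSK126 went down to between 1 and 5 when 1 array was left out, with 1 left without DMSO replicate 1 or GSK126 replicate 1 and 2 without DMSO replicate 2 or GSK126 replicate 2. The count for UNC0638 went down to 4 without DMSO replicate 1 or UNC0638 replicate 2. In RPMI-8226 cells limma called 0 of the 7 members tested with GSK126 (3 at an unadjusted p under 0.05; 0.547% of all probes higher and 0.0517% lower) and 0 with UNC0638 (2 at an unadjusted p under 0.05; 0.556% and 0.0776%). Both inhibitors raised 2 and lowered 1 there, where 7.2% and 5.17% of all probes were called. That count of 3 became 0 without DMSO replicate 1, and 1 without DMSO replicate 2, either UNC0638 array or either GSK126+UNC0638 array. The median difference with both inhibitors was 2.53 over the 10 members in MM.1S cells, against -0.12 over all probes, and -0.07 over the 7 members tested in RPMI-8226 cells, against -0.13. These medians cover different members, since RSAD2, TRIM5 and TRIM22 are in the first alone, and they do not compare the lines. The fitted values of RSAD2 and TRIM22 in the first rest on DMSO arrays at background and are no measure of size.

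Each inhibitor alone was also compared with the pair. In MM.1S cells GSK126+UNC0638 raised 6 members over GSK126 (15.1% of all probes were higher), with MX1 at 4.75-fold, MX2 at 5.73-fold, RSAD2 at 11.3-fold and TRIM22 at 11.8-fold, and with adjusted p between 0.000837 and 0.00177 for these 4. IFITM2 rose by 1.29 (adjusted p = 0.0326) and IFITM3 by 0.90 (adjusted p = 0.0229). Over UNC0638 it raised 7 members (6.03% of all probes), from 2.02-fold for MX1 (adjusted p = 0.0168) to 5.75-fold for TRIM22 (adjusted p = 0.0137). The count of 7 fell to 0 without UNC0638 replicate 1 or GSK126+UNC0638 replicate 2 and to 1 without UNC0638 replicate 2, and it was 0 when the fit held no other groups. GSK126 alone was below UNC0638 alone for MX1 (-1.23 ± 0.14; adjusted p = 0.00632) and RSAD2 (-1.43 ± 0.28; adjusted p = 0.0281) in MM.1S cells, where 6.02% of all probes were lower. The RSAD2 call was lost in 7 of the 8 fits that left out 1 array, all but that without GSK126 replicate 1 (adjusted p between 0.0236 and 0.119).

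In RPMI-8226 cells limma called no member between GSK126+UNC0638 and GSK126 (2 at an unadjusted p under 0.05; 2.55% of all probes called in either direction), between GSK126+UNC0638 and UNC0638 (2; 3.39%), or between GSK126 and UNC0638 (3; 1.42%). Same-numbered arrays deviated together in this line, and with the replicate number as a block the pair was below GSK126 for IFITM1 (-1.25 ± 0.24; adjusted p = 0.0415) and IFITM3 (-0.83 ± 0.17; adjusted p = 0.0484) and above UNC0638 for MX1 (2.05 ± 0.41; adjusted p = 0.0422). With that block GSK126 was above UNC0638 for IFITM3 (0.96 ± 0.17; adjusted p = 0.0401). Without it the adjusted p of these 4 was 0.0503, 0.0597, 0.0689 and 0.0541.

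**Figure D3:**
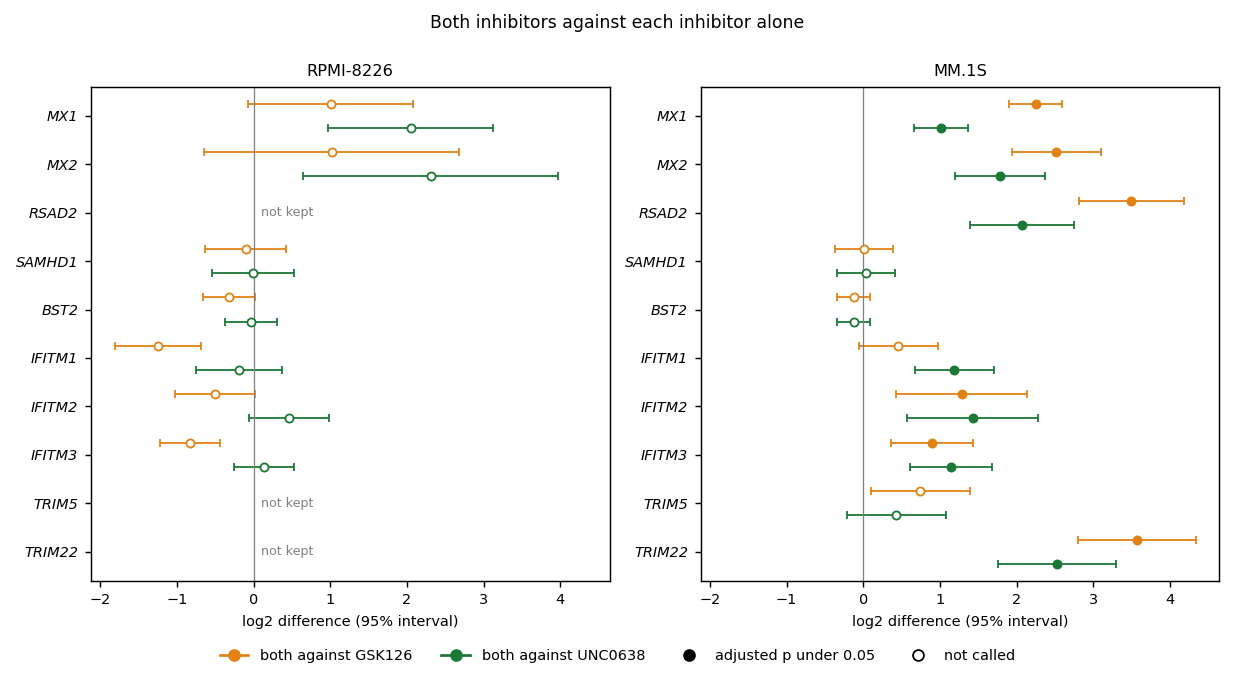
Log2 difference (x axis) with its 95% interval between GSK126+UNC0638 and GSK126 alone (orange) or UNC0638 alone (green) for each restriction factor (y axis) in RPMI-8226 (left) and MM.1S (right) cells; filled points passed an adjusted p of 0.05. In MM.1S cells 6 and 7 members were higher with both inhibitors, and none was called in RPMI-8226 cells.

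Whether the pair departed from the sum of the log2 differences of its parts was tested as an interaction. No member was called in either line (limma; 0 RPMI-8226 members at an unadjusted p under 0.05, and 1 MM.1S member, MX2; 0.164% of all RPMI-8226 probes called, and 0% of MM.1S probes). The departure was 0.06 (95% interval -0.43 to 0.55) for MX1 and 1.02 (0.19 to 1.85; adjusted p = 0.448) for MX2 in the MM.1S line. The RPMI-8226 value was 0.39 (-1.13 to 1.91) for MX1. These intervals leave room for departures of more than 1 log2 unit in several members. For RSAD2 and TRIM22 the test cannot decide, since their DMSO signals in MM.1S cells were at background. Over the alternatives the MM.1S departure ran from -1.29 to 0.88 for RSAD2 and from -0.22 to 1.31 for TRIM22.

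The IFITM genes also responded differently in the 2 lines. The response to GSK126+UNC0638 was lower in RPMI-8226 than in MM.1S cells by 3.14 log2 units for IFITM1 (-3.14 ± 0.33; adjusted p = 0.00035), by 2.78 for IFITM2 (-2.78 ± 0.43; adjusted p = 0.00316) and by 2.69 for IFITM3 (-2.69 ± 0.28; adjusted p = 0.000332), where 5.28% of all probes were lower. These 3 calls held in all 25 alternatives. MX1 (-0.53, 95% interval -1.66 to 0.59) and MX2 (-0.41, -2.19 to 1.37) were not called, and the intervals do not show equal responses. For UNC0638 the responses of IFITM1 (-1.76 ± 0.33; adjusted p = 0.0258) and IFITM3 (-1.68 ± 0.28; adjusted p = 0.0155) were lower in RPMI-8226 cells, where 1.02% of all probes were. Neither was called without MM.1S DMSO replicate 2, MM.1S UNC0638 replicate 2 or either RPMI-8226 UNC0638 array, with adjusted p up to 0.0944 for IFITM1 and 0.0664 for IFITM3, and IFITM1 was also lost without RPMI-8226 DMSO replicate 2 or MM.1S DMSO replicate 1. IFITM2 differed by -1.82 ± 0.43 (adjusted p = 0.0563), and was called with the replicate number as a block (adjusted p = 0.0034). For GSK126 none of 7 members was called by limma (4 at an unadjusted p under 0.05; 0.599% of all probes in either direction), with IFITM1 at -1.43 ± 0.33 (adjusted p = 0.0986), which was called with that block (adjusted p = 0.0379). The block covered both lines, although the numbers were taken to pair the samples in the RPMI-8226 line alone. RSAD2, TRIM5 and TRIM22 could not be tested for a difference, since they were not kept in RPMI-8226 cells.

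**Figure D4:**
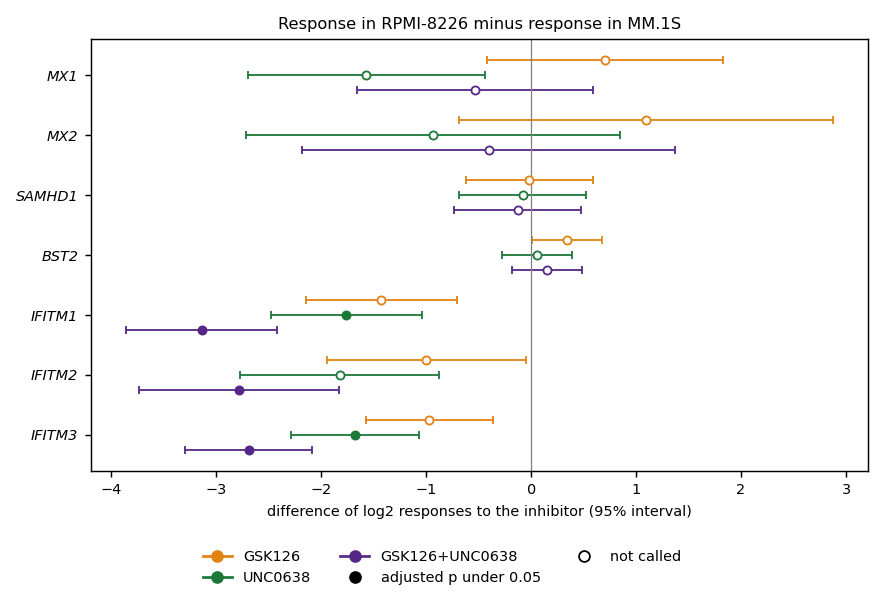
Response of RPMI-8226 minus response of MM.1S (x axis, difference of log2 differences from DMSO, with 95% intervals) for the 7 restriction factors kept in both lines (y axis), by treatment; filled points passed an adjusted p of 0.05. The 3 IFITM genes lie to the left of 0, between -3.14 and -2.69 with GSK126+UNC0638, and the intervals of MX1, MX2, SAMHD1 and BST2 with both inhibitors hold 0.

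The factors that drive such genes were followed from a list of 29 ligands, receptors and signalling proteins. With GSK126+UNC0638, 6 of 24 tested rose and 1 fell in RPMI-8226 cells (median difference 0.51, against -0.13 over all probes), and 12 of 24 rose and 2 fell in MM.1S cells (0.40, against -0.12). Over all probes, 7.2% were higher and 5.17% lower in the former line, and 22.2% and 31.7% in the latter. IRF9 rose by 1.54 ± 0.18 in the RPMI-8226 line (adjusted p = 0.00398) and by 1.48 ± 0.09 in the MM.1S line (adjusted p = 0.000215). STAT2 rose by 0.88 ± 0.10 in MM.1S cells (adjusted p = 0.00102) and differed by 0.82 ± 0.34 in RPMI-8226 cells (adjusted p = 0.158). IRF7, an amplifier of interferon production, rose by 1.10 ± 0.19 in RPMI-8226 cells (adjusted p = 0.0161) and differed by 0.25 ± 0.09 in MM.1S cells (adjusted p = 0.0534), and its 2 responses differed (0.85 ± 0.20; adjusted p = 0.0228). USP18, which limits receptor signalling, rose by 2.09 ± 0.11 in MM.1S cells (adjusted p = 0.000144) and was at least 2.22-fold higher in RPMI-8226 cells (adjusted p = 0.0123). In the RPMI-8226 line USP18 passed the filter through the GSK126+UNC0638 group alone, so only a rise could be seen, and it is among the 6 that rose. Its adjusted p there belongs to a fitted difference from DMSO arrays at background, not to the bound. IFNGR1, a chain of the interferon gamma receptor, rose by 1.29 ± 0.22 and 0.94 ± 0.24 (adjusted p = 0.0151 and 0.017). Among the interferons themselves, IFNA2, IFNB1 and IFNL3 were above background on no array, IFNL1 on 2, both of MM.1S cells, and IFNL2 on 14. IFNA1 was not matched. A probe at background does not show that its RNA was absent or unchanged.

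The same factors were read with each inhibitor alone. In MM.1S cells UNC0638 raised IRF9 by 1.13 ± 0.09 (adjusted p = 0.00148) and STAT2 by 0.66 ± 0.10 (adjusted p = 0.0078). In RPMI-8226 cells the same inhibitor gave 0.26 ± 0.18 for IRF9, which was not called, and the IRF9 response to UNC0638 was lower there (-0.87 ± 0.20; adjusted p = 0.0491). GSK126 gave 0.93 ± 0.18 for IRF9 (adjusted p = 0.117) in RPMI-8226 cells.

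Among 30 other restriction factors the picture was mixed. With both inhibitors 2 of 25 tested rose and 2 fell in RPMI-8226 cells (median 0.04, against -0.13 over all probes), and 6 of 28 rose and 6 fell in MM.1S cells (-0.06, against -0.12). The MM.1S shares were below the 22.2% higher and 31.7% lower of all probes, and in the RPMI-8226 line those were 7.2% and 5.17%. PLSCR1, a scramblase with antiviral activity, rose by 1.67 ± 0.30 and 1.36 ± 0.11 in RPMI-8226 and MM.1S cells (adjusted p = 0.019 and 0.000369). MOV10, an RNA helicase that restricts retroelements, rose by 0.99 ± 0.17 and 1.24 ± 0.20 (adjusted p = 0.0149 and 0.00353). APOBEC3B, a cytidine deaminase, fell by 1.10 (SE 0.19) and 1.32 (SE 0.15), with adjusted p = 0.0177 and 0.000988.

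Genes that flank the members were read as well. Of the 17 neighbours, 1 of 8 tested rose and 2 fell in RPMI-8226 cells with both inhibitors (median -0.12, against -0.13 over all probes), and 5 of 12 rose and 2 fell in MM.1S cells (0.11, against -0.12), beside 7.2% higher and 5.17% lower of all RPMI-8226 probes and 22.2% and 31.7% of all MM.1S probes. CMPK2, a mitochondrial nucleotide kinase next to RSAD2, went from -3.94 and -4.41 with DMSO to -0.36 and -0.19 with both inhibitors in MM.1S cells, a rise of 3.90 ± 0.19 (adjusted p = 0.000134). It rose there with GSK126 (1.83 ± 0.19; adjusted p = 0.0081) and UNC0638 (2.52 ± 0.19; adjusted p = 0.00127) too, and was above background on none of the 8 RPMI-8226 arrays. RBL1, a pocket protein of the cell cycle next to SAMHD1, fell by 0.77 and 0.75 (SE 0.19 and 0.14; adjusted p = 0.0468 in RPMI-8226 and 0.00524 in MM.1S cells).

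The targets of the inhibitors were measured on every array. EZH2 fell by 1.10 (SE 0.18; adjusted p = 0.00348) and EHMT2 by 0.32 (SE 0.10; adjusted p = 0.0347) with both inhibitors in MM.1S cells, and neither was called in RPMI-8226 cells (-0.30 ± 0.14 and -0.53 ± 0.22; adjusted p = 0.198 and 0.164). RNA levels do not measure the activity of an inhibited enzyme. The summed level of the 4 monocyte or macrophage markers in RPMI-8226 cells was between 0.80 and 1.16 with DMSO, 2.30 and 2.78 with GSK126, 0.50 and 0.94 with UNC0638, and 2.34 and 2.59 with both. In MM.1S cells it was between -0.20 and -0.18, -0.87 and -0.64, 0.64 and 0.83, and 0.41 and 0.54 in the same order. Of these 4 markers CD14 and CD68 were above background on all 16 arrays, CSF1R on 8 and FCGR3A on none. The T or NK cell markers went from between 3.13 and 3.43 with DMSO to between 2.83 and 3.02 with GSK126, 3.88 and 4.07 with UNC0638, and 3.75 and 3.88 with both in the RPMI-8226 line. In the MM.1S line they went from between -0.016 and 0.17 to between 0.68 and 0.94 with both. The plasma cell markers went from between 9.34 and 9.37 with DMSO to between 8.81 and 8.83 with both in the MM.1S line, and from between 8.32 and 8.57 to between 7.79 and 8.10 in the other. The part of these markers in the results of the members was not tested.

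The genes whose pattern was most like a member were found over the 16 arrays, after the mean of each line was subtracted, among 15536 other genes. MX1 was most like IFI44L (r = 0.99), IFIT1 (r = 0.97) and FCGR2B (r = 0.97), and MX2 was most like MX1 (r = 0.96), IFI44L (r = 0.95) and TNFSF4 (r = 0.94). IFITM1 and IFITM3 were each most like IFITM4P, a pseudogene of the same family (r = 0.98 and 0.99), and then IFITM3 and IFITM1 in turn (r = 0.96), with CKB (r = 0.91) and PTP4A3 (r = 0.93) next. The IFITM4P probe may read RNA of its near copies, which was not tested. The IFITM1 and IFITM3 probes had a longest shared run of 5 bases, and 6 of 11 aligned bases were the same. IFITM2 was most like PAQR8 (r = 0.95), ANTXR2 (r = 0.94) and TNFRSF10D (r = 0.93). BST2 (XLOC_011150 and CD4 among the most like it, r = 0.94 and 0.92) and SAMHD1 (AGPAT6, CLN3 and URGCP, r between 0.80 and 0.83) varied little, with an SD of 0.15 each over the centred arrays. These correlations describe arrays that share treatments and slides and carry no p.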

How the data were processed

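Total RNA was labelled with 1 dye and hybridised to 16 arrays. The authors deposited scanner output of Agilent Feature Extraction (version 10.7, per the submitters' processing notes), that is, a linear, background-subtracted intensity for every spot with no scaling between arrays. A deposited table of the whole series holds the same intensity values in rounded form (99.9958% of 1007616 values equal after rounding). Of 62976 spots, 4259 controls and the outlier spots (220 to 358 per array) were left out, and none was saturated. Intensities were divided by the 75th percentile of each array and taken to log2, and replicate spots were averaged. A probe was kept in a line if some group had it well above background on both of its arrays. With 2 arrays a group, precision is low.

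Samples were grouped by line and treatment. limma (version 3.58.1, R 4.3.3) was fitted with lmFit and eBayes over the 8 arrays of a line, and over all 16 for differences between the lines, with Benjamini-Hochberg adjustment over all probes kept (21370 in both lines for responses, 26931 in either line for DMSO levels), and was tested on simulated data. In RPMI-8226 cells the deviations of same-numbered arrays from their group means correlated at r of 0.25 to 0.42 in all 6 pairs of groups. The replicate numbers in the labels were therefore taken to pair the samples, but the main fits held no block for them. The replicate block was an alternative. The replicate numbers also follow the row of the slide. Each treatment had its own column of the slide, the same column in both lines, so treatment and column cannot be told apart.

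The members and gene lists were chosen with earlier results of these data known. The 3 genes most like each member by Pearson r were also sought. All members are named; from the lists, up to 8 genes called with both inhibitors in both lines by the smaller change, plus STAT2, IRF9, IRF7, CMPK2, EZH2 and EHMT2; some genes that the rules name are not reported here. The alternatives were normexp (offset 50), quantile normalization, a percentile over probes detected on all arrays, no filter, all arrays detected, the series table, the replicate block, each array left out, an intensity trend, other sets of arrays in the fit, the mean over probes and a call with more than 2-fold. Promoter windows come from RefSeq (GRCh38.p14).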

Additional observations from a re-analysis of the deposited data

Results flagged for a closer look

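5 responses of restriction factors differed between the lines in a test of the difference itself. With GSK126+UNC0638, the response in RPMI-8226 minus that in MM.1S cells was -3.14 for IFITM1, -2.78 for IFITM2 and -2.69 for IFITM3 on the log2 scale (limma adjusted p = 0.00035, 0.00316 and 0.000332), and with UNC0638 it was -1.76 for IFITM1 and -1.68 for IFITM3 (adjusted p = 0.0258 and 0.0155). In MM.1S cells every treated array lay above both DMSO arrays for these 3 genes. In RPMI-8226 cells, where the DMSO levels were 31.1-fold to 61.3-fold higher, both UNC0638 arrays lay below both DMSO arrays. The 3 differences between UNC0638 and DMSO were not called there (limma adjusted p = 0.282 for IFITM1, 0.78 for IFITM2 and 0.162 for IFITM3). Each line was on its own slide, and the part of the slide, or of the starting level, in these differences was not tested.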

How the results depend on the processing

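Of 50 calls of members over 18 comparisons, 21 were kept in every alternative that tested them. The other 29 were lost in at least 1 (25 when 1 array was left out). Kept in this way were the 7 rises with GSK126+UNC0638 in MM.1S cells and the 3 IFITM differences of response to it. Of these rises, those of RSAD2 and TRIM22 were not tested with detection on all arrays, where neither gene was kept. The BST2 difference with GSK126+UNC0638 in MM.1S cells, -0.38, was 0.091 with quantile normalization, and the cause was not tested here or below. In RPMI-8226 cells, the number of members called with GSK126 was 1 instead of 0 with 1 fit over all 16 arrays, and with GSK126+UNC0638 it was 1 instead of 3 with only the groups compared. For GSK126+UNC0638 against GSK126 it was 0, but 2 with normexp, an intensity trend, all 16 arrays or the replicate block, and 1 with the mean over probes. Against UNC0638 it was 0, but 2 with normexp or all 16 arrays and 1 with a trend or the replicate block. For GSK126 against UNC0638 it was 0, but 3 with normexp or a trend, 2 with all 16 arrays, and 1 with the other percentile, detection on all arrays, the mean over probes or the replicate block. In MM.1S cells, GSK126 called 6, but 1 without the filter and 3 with only the groups compared, and UNC0638 called 7, but 4 without the filter. GSK126+UNC0638 against UNC0638 called 7, but 1 without the filter, 0 with only the groups compared and 4 with all 16 arrays. GSK126 against UNC0638 called 2, but 1 without the filter or with detection on all arrays, 4 with a trend or the replicate block, and 0 with all 16 arrays. The response to GSK126 differed in 0 members, but in 1 with a trend or the replicate block (IFITM1, adjusted p = 0.0379), and that to UNC0638 in 2, but in 1 without the filter.

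With 1 array left out, the counts in MM.1S cells ran from 1 to 5 (GSK126), 4 to 7 (UNC0638), 7 to 9 (both), 4 to 7 (both against GSK126), 0 to 6 (both against UNC0638) and 1 to 2 (GSK126 against UNC0638). In RPMI-8226 cells they ran from 0 to 3 with both inhibitors and from 0 to 1 for GSK126 against UNC0638, and were 0 in the rest. Response differences ran from 0 to 2 for UNC0638, and were 0 for GSK126 and 3 for both, and the DMSO comparison from 5 to 6. In MM.1S cells 5 of 6 correlations of same-numbered arrays were over 0.1 (r from 0.0847 to 0.225), against 6 of 6 in RPMI-8226 cells. Replicate numbers were not taken to pair the MM.1S samples, which was a narrow decision. With the replicate block IFITM1 and MX2 were gained for GSK126 against UNC0638, TRIM5 with both inhibitors (adjusted p = 0.0232), TRIM5 and IFITM1 for both against GSK126, and IFITM2 in the response to UNC0638 (adjusted p = 0.0034). The percentile over probes detected on all arrays moved the median of all probes with both inhibitors by 0.13 in RPMI-8226 and 0.19 in MM.1S cells, and the share of calls that were higher from 58.2% to 75.2% and from 41.2% to 58.0%. Brightness limits RSAD2, TRIM5 and TRIM22 in RPMI-8226 cells, where they were at or near background.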
